A study of Homo sapiens with 4 samples.

Results

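The authors' site lists place 1783 sites of PARP1 IP 1 and 2155 sites of PARP1 IP 2 in exons of noncoding genes. These are 1.07% of the 166248 sites of IP 1 and 0.938% of the 229782 sites of IP 2. A site was a member when the authors' own region label put it in an exon of a noncoding gene, whatever its mutation type. The lists hold only mutated bases, and among the listed sites no measured value chose the members. They lie in 1026 genes in IP 1 and 1254 genes in IP 2.

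The study sequenced RNA that came down with PARP1 in HK-2 cells, a human kidney line of proximal tubule origin that was immortalised. The series holds 2 PARP1 immunoprecipitations (IP 1 and IP 2), for which a Flag antibody was used, and 2 inputs, which were not analysed here. No treatment, no control immunoprecipitation and no crosslinking step are described, and the labels do not name separate cultures for the IPs, so differences between them may be technical. Of 10 genes known for this epithelium, 9 in IP 1 and 10 in IP 2 had a site on the sense strand (KRT8, CDH1 and PAX8 in each), and KRT19 had none in IP 1. Sites in introns alone lay in 12934 genes of IP 1 and 14488 of IP 2, so these counts do not identify the cell type. Each deposited site is 1 base on 1 strand of GRCh38. It comes with the count of sequenced tags that cover it, the count of mutated tags among them, the mutation type and the authors' false discovery rate (FDR).

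Long noncoding RNAs (lncRNAs) are long transcripts with no protein product, and several of the abundant ones stay in the nucleus and build nuclear bodies. Processed pseudogenes are copies of spliced messenger RNAs that were reverse transcribed and inserted elsewhere in the genome, so they lack introns and remain very similar to the messenger RNA of their source gene. Unprocessed pseudogenes come from gene duplication and keep an exon-intron structure. PARP1 senses DNA breaks and modifies proteins with chains of ADP-ribose. It also binds RNA, and small nucleolar RNAs are among its known RNA partners.

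The sequences below are pseudogene stretches around sites listed at the same base in both IPs, as 4.17% of all sites of IP 1 and 3.02% of all sites of IP 2 are. Each is followed by the matching stretch of the most similar protein-coding transcript. They are shown because the listed bases and the bases at which the 2 copies differ nearly coincide. Capitals mark the listed bases in the pseudogene and the base at the same place in the protein-coding transcript. All sequences are from GENCODE 29 transcripts on GRCh38, read 5′ to 3′ on the strand of the transcript.
PRELID3BP10, chr7:127295725-127295765, plus strand: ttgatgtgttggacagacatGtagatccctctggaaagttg
PRELID3B: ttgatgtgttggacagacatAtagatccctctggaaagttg
TTC3P1, chrX:75741917-75741957, minus strand: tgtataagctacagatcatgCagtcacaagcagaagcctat
TTC3: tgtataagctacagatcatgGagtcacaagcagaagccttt
AKR1B1P3, chr11:16484214-16484269, minus strand: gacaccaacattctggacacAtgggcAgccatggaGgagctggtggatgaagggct
AKR1B1: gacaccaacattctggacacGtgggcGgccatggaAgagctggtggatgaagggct
MTHFD2P7, chr3:179465018-179465070, plus strand: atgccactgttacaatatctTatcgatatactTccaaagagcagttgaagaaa
MTHFD2: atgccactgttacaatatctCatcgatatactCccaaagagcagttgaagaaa

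In tokens that give the pseudogene base, its position from the 5′ end of the window and the base of the protein-coding transcript, the listed sites were G21A in PRELID3BP10, C21G in TTC3P1, A21G, A27G and G36A in AKR1B1P3, and T21C and T33C in MTHFD2P7. Only stretches with a listed base at which the copies differ, and with no alignment gap, were taken. That all 7 listed bases differ is therefore partly set by this choice. Over all pseudogenes with a member site, 6.5% of the aligned bases differ. The stretches hold 1 further difference, A40T in TTC3P1, which neither IP lists. The tags were mutated without exception at the PRELID3BP10 site (5 of 5 tags in IP 1 and 5 of 5 in IP 2), at the TTC3P1 site (6 of 6 and 5 of 5), and at each AKR1B1P3 and MTHFD2P7 site shown (4 of 4 in each IP). The source genes are PRELID3B, TTC3 (a ubiquitin ligase), AKR1B1 (aldose reductase, the first enzyme of the polyol pathway) and MTHFD2 (a mitochondrial folate enzyme).

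Of the lncRNA sites that recurred, the 4 that lead when ranked by the lower count of mutated tags of the 2 IPs, and then by the lower count of tags, are shown in the same way, with the listed base in capitals, so that the bases around each can be read beside its counts. ADIRF-AS1 (3 of 3 tags mutated in IP 1 and 6 of 6 in IP 2), GATA2-AS1 (3 of 3 and 7 of 7) and PDXDC2P-NPIPB14P (3 of 3 and 4 of 4) tie with NEAT1 and AL118506.1 on the first count.
AC103702.2, chr17:48636150-48636190, minus strand: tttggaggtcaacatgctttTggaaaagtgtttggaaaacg
AL031282.2, chr1:1735350-1735390, minus strand: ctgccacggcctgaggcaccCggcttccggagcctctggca
NEAT1, chr11:65425518-65425558, plus strand: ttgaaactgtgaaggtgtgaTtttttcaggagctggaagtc
AL118506.1, chr20:63861399-63861439, minus strand: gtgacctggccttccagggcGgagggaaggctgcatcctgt

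Of these, NEAT1 alone has an insertion, listed at the first base of a run of 6 T. That base had 3 mutated tags of 85 in IP 1 and 3 of 71 in IP 2. The others are substitutions. AC103702.2 had 4 mutated tags of 6 in IP 1 and 4 of 8 in IP 2, AL031282.2 had 4 of 6 and 4 of 4, and AL118506.1 had 3 of 5 in each IP.

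Pseudogenes held more of the noncoding exon sites than lncRNAs did. In GENCODE 29, 1067 sites of IP 1 (59.8%) and 1216 of IP 2 (56.4%) were in genes annotated as pseudogenes, and 661 (37.1%) and 858 (39.8%) were in lncRNA genes. With 1 site per gene the pseudogene share was 49.5% in IP 1 and 48.6% in IP 2. The gene type with the most sites was the processed pseudogene, with 877 sites in IP 1 (49.2%) and 952 in IP 2 (44.2%). Among lncRNAs, 242 sites of IP 1 and 381 of IP 2 were in genes typed lincRNA, and 281 and 326 were in genes typed antisense. Small and mitochondrial RNAs had 5 and 22 sites. A further 19 and 21 sites were in genes that GENCODE 29 calls protein-coding, and 31 and 38 had an identifier that it does not hold. Of the members, 97.6% in IP 1 and 97.7% in IP 2 fell in an exon of a noncoding gene in that annotation.

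**Figure D1:**
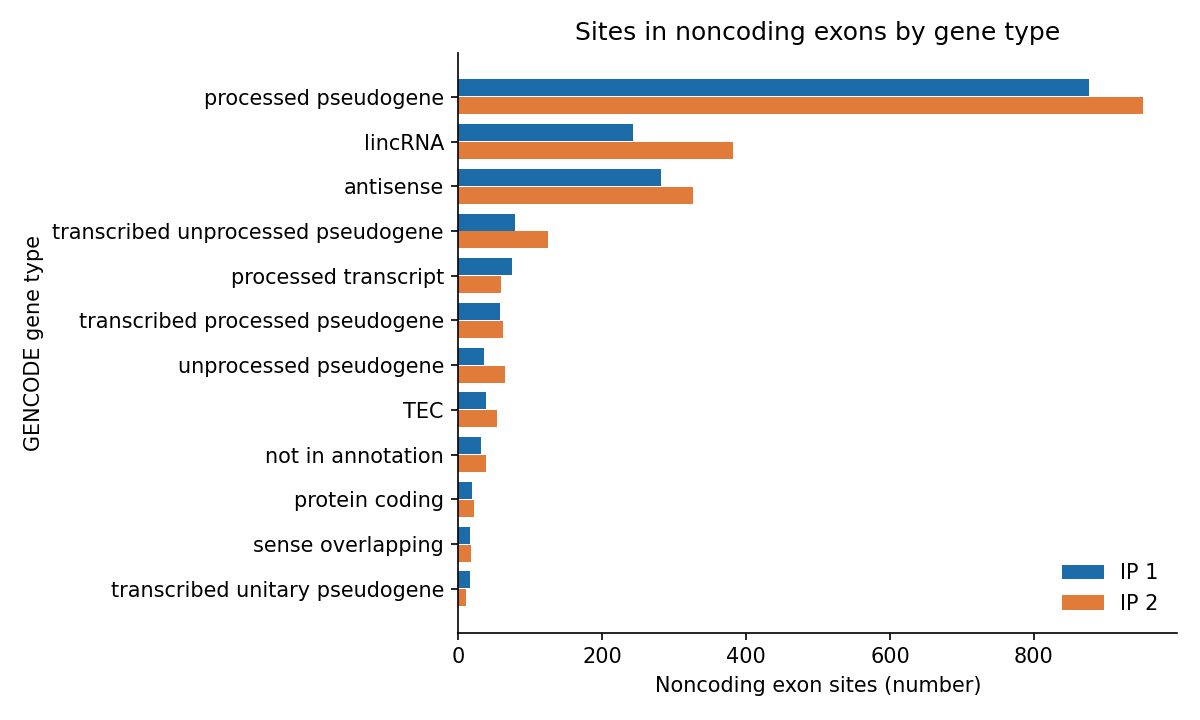
Number of noncoding exon sites (horizontal axis) by the GENCODE 29 type of the assigned gene, for types with at least 25 sites over both lists, with 1 bar for each IP. Processed pseudogenes have 877 sites in IP 1 and 952 in IP 2, above every other type.

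Counted as genes and not as sites, lncRNAs and pseudogenes were near each other. Of 16054 annotated lncRNA genes, 937 (5.84%) had a site in either IP, and of 15224 annotated pseudogenes, 917 (6.02%) did. Of 10191 processed pseudogenes 691 (6.78%) had a site, of 7629 lincRNA genes 384 (5.03%), of 5583 antisense genes 379 (6.79%), and of 600 genes typed processed transcript 71 (11.8%). Most genes had a single site, 621 genes (60.5%) in IP 1 and 766 (61.1%) in IP 2. In all 349 genes had a site in both IPs, 34.0% of the 1026 genes with a site in IP 1 and 27.8% of the 1254 in IP 2. For pseudogenes 201 genes were in both IPs, 39.6% of the pseudogenes found in IP 1 and 33.0% of those found in IP 2. For lncRNAs 134 were, 27.7% and 22.8%. The overlap over all genes with a site of any class was not taken, so these shares have no background beside them. Pseudogenes also had more sites per gene, which can raise their overlap. They had 1067 sites in 508 genes in IP 1 and 1216 in 610 in IP 2. For lncRNAs it was 661 in 483 and 858 in 588.

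The sites are shallow. The median site had 2 tags in each IP, and at 74.4% of sites in IP 1 and 73.6% in IP 2 there were exactly 2 tags, both mutated. In all, the member sites carried 5488 tags in IP 1 and 6690 in IP 2. Sites with 3 or more mutated tags made up 20.3% of members in IP 1 and 20.1% in IP 2, against 8.23% and 8.35% of all listed sites. In the untranslated regions (UTRs) and coding sequence of protein-coding genes the share was 16.3% and 16.8%. In 5′ UTRs alone it was 21.0% and 22.9%. Pseudogene sites reached 3 mutated tags in 25.5% and 26.2% of cases, and lncRNA sites in 12.9% and 12.0%. At substitutions, 97.2% of member sites in IP 1 and 96.3% in IP 2 had the mutation in every tag. The authors' FDR limit may partly set this share. A substitution with 2 of 2 tags mutated had an FDR of 0.00671 in IP 1 and 0.00643 in IP 2. The highest FDR of any member was 0.00833 and 0.00926. The same share was not taken for the other classes of site.

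The nuclear lncRNAs NEAT1 and MALAT1 had most of the sites with 50 or more tags. NEAT1 is the scaffold of paraspeckles, and MALAT1 is an abundant RNA of nuclear speckles. All 8 noncoding exon sites of IP 1 with 50 or more tags were in these genes, as were 7 of the 10 such sites of IP 2. At 10 or more tags they held 9 of 32 sites in IP 1 and 8 of 42 in IP 2, and pseudogenes held 15 and 18. Their sites carried 767 tags in IP 1, 14.0% of all tags at member sites from 0.505% of the sites, and 517 tags in IP 2, 7.73% from 0.371% of the sites. The other sites with 50 or more tags in IP 2 were in RN7SL1, the RNA of the signal recognition particle (91 tags, 4 mutated), and at 2 adjacent deleted bases of the mitochondrial ribosomal RNA MT-RNR1 (81 and 82 tags, 3 mutated at each).

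In NEAT1 (chr11:65422774-65445540, plus strand) the sites of IP 1 had 85, 64, 78, 76, 99 and 18 tags in order along the transcript, with 3, 3, 3, 5, 8 and 4 mutated. The sites of IP 2 had 57, 71, 71, 72 and 56 tags, with 3, 3, 4, 4 and 3 mutated. They stretch from base 2019 to base 22678 of the gene, counted from its start, so they are in both the front part and the far part of the long transcript. The insertion at base 2765, shown above, is in both lists, and none of the other NEAT1 bases is. In MALAT1 (chr11:65497688-65506516, plus strand) the sites of IP 1 had 128, 105 and 114 tags, with 4, 5 and 3 mutated. Those of IP 2 had 54, 124 and 12 tags, with 5, 3 and 2 mutated, and no MALAT1 base is in both lists. In both genes a small part of the tags is mutated. Deep pseudogene sites were of both kinds, with 3 of 36 tags mutated at HNRNPCP2 in IP 2 and 4 of 26 at each of 3 adjacent deleted bases of RPL5P34 in IP 1, and with 17 of 17 at a base of AKR1B1P2 in IP 2.

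**Figure D2:**
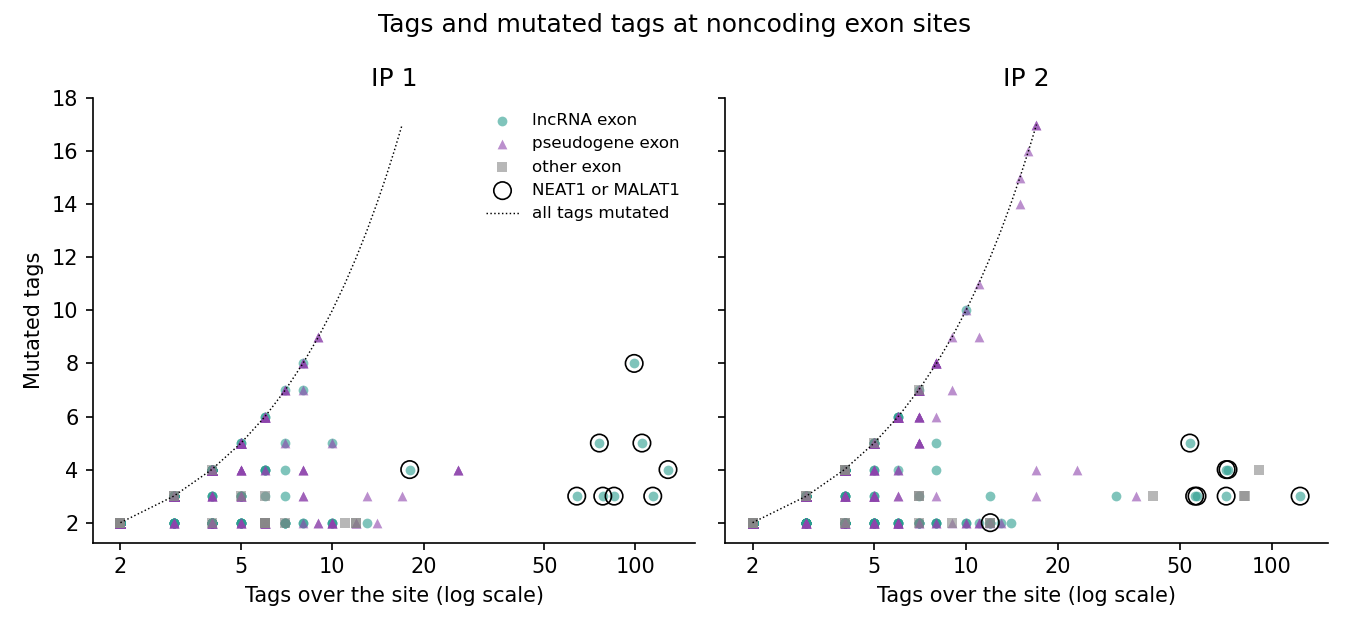
Mutated tags (vertical axis) against tags over the site (horizontal log axis) for noncoding exon sites of IP 1 (left) and IP 2 (right), with a marker for lncRNA, pseudogene and other exons, rings for NEAT1 and MALAT1, and a dotted line where every tag is mutated. Sites on autosomes, the X chromosome and the mitochondrial chromosome are drawn. Some pseudogene sites lie on the dotted line up to 17 mutated tags and others lie to the right of it, with 3 of 36 tags mutated at the farthest, and the NEAT1 and MALAT1 sites reach 128 tags with at most 8 mutated.

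Among the other nuclear lncRNAs of the list, TUG1 had 2 sites in each IP (10 tags at each base in IP 1, and 8 and 12 in IP 2), MIAT had 1 site in IP 1 and 2 in IP 2, and JPX and FTX, both from the X inactivation centre, had 4 and 2 sites in IP 2 and none in IP 1. The JPX sites are 4 adjacent deleted bases, each with 2 of 3 tags mutated. FIRRE, KCNQ1OT1 and MEG3 had no exon site. In all, 4 of 9 genes of this list had a site in IP 1 and 6 in IP 2, beside 483 and 588 of all 16054 lncRNA genes (5.84% in either IP). The length and level of the genes were not matched in this or the other counts of lists.

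Among lncRNAs linked to the tumour suppressor p53 or to DNA damage, 3 of 9 annotated genes had an exon site in IP 1 and 3 in IP 2 (4 in either), beside the 5.84% of all lncRNA genes with a site in either IP. NORAD, which binds PUMILIO proteins and is induced by DNA damage, had 1 site in IP 1 with 8 tags, and 2 in IP 2 with 31 and 14 tags. DDX11-AS1 had 1 site in IP 1 and 2 in IP 2, TERC, the RNA template of telomerase, had 1 in IP 1 alone, and LINC-PINT, a p53 target, had 2 in IP 2 alone. PVT1 had no exon site but 100 intron sites in IP 1 and 109 in IP 2, and LINC-PINT likewise had 43 and 53 intron sites. DINOL, PANDAR and PURPL had no site of either kind.

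Of 16 lncRNAs linked to kidney injury, TGF-beta signalling or hypoxia, 3 had an exon site in IP 1 and 3 in IP 2 (4 in either, beside 5.84% of all lncRNA genes). LINC00963 had 5 sites in IP 1 and 6 in IP 2, none at the same base, with up to 12 tags. HOTAIR, which was described as a partner of chromatin-modifying complexes, had a deletion at the same base in both IPs, with 2 of 2 tags mutated in each. TGFB2-AS1, antisense to the gene for TGF-beta 2, had 1 site in IP 1, and CYTOR had 1 in IP 2. CASC15 had 34 and 39 intron sites and no exon site, and CDKN2B-AS1 had 12 and 15. H19, HOTTIP, MIR210HG and MIR22HG had no exon or intron site.

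Hosts of small RNAs had few sites each. Of 24 annotated SNHG genes, which carry small nucleolar RNAs in their introns, 7 had an exon site in IP 1 and 6 in IP 2 (11, or 45.8%, in either, beside 5.84% of all lncRNA genes). SNHG7 had 1 site in IP 1 and 3 in IP 2, with 1 base in both lists. SNHG16 had 2 sites in IP 1 and none in IP 2, the deeper with 5 of 10 tags mutated. GAS5 had 1 site in IP 1, and DANCR had 2 in IP 2. Of 55 microRNA host genes, 6 had a site in IP 1 and 8 in IP 2 (11 in either, beside the same 5.84%). MIRLET7BHG, the host of let-7 family microRNAs, had the most, with 2 sites in IP 1 and 3 in IP 2. Of 11 small structured RNAs, TERC had its site in IP 1 and RN7SL1 in IP 2. SNORA37, SNORA73A, SNORA73B and SNORA74A, small nucleolar RNAs known to bind PARP1, and RN7SK, RMRP and RPPH1 had none. Of all 943 annotated small nucleolar RNA genes 2 (0.212%) had a site in either IP. Of 7506 genes for small or mitochondrial RNAs 23 (0.306%) did. The libraries were size-selected, and a transcript with tags but no mutated tag is not listed, so no site does not mean no tag.

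Genes with names of the antisense form had sites in 162 of 1238 cases (13.1%), against 108 of 1864 (5.79%) for LINC-named genes and 13 of 208 (6.25%) for divergent and intronic transcripts. GABPB1-AS1, which starts beside GABPB1, had the most sites of any noncoding gene, 9 in IP 1 and 9 in IP 2 over 17179 exon bases, and none at a shared base. Its sites had 2 to 7 tags. PINK1-AS, antisense to the mitophagy kinase gene PINK1, had 4 sites in IP 1 and 3 in IP 2, and 2 substitutions were at the same base in both lists with 2 of 2 tags mutated. FGD5-AS1 and MMP25-AS1 each had 5 sites in IP 1 and 2 in IP 2, and SLC25A25-AS1 had 2 and 5. VIM-AS1, antisense to the vimentin gene, had 1 substitution in IP 2 with 10 of 10 tags mutated, the most mutated tags of any lncRNA found in IP 2 alone.

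Several high counts come from runs of adjacent deleted bases. LINC01355 had 2 sites in IP 1 and 11 in IP 2, and 10 of those 11 are consecutive deleted bases, each with 2 of 4 tags mutated. GUSBP1, an unprocessed pseudogene of the beta-glucuronidase gene, had 2 sites in IP 1 and 12 in IP 2, of which 10 are consecutive deleted bases with 2 or 3 tags. GMDS-DT had 9 sites in IP 1 and 5 in IP 2, with 4 consecutive deleted bases in IP 1. BAIAP2-DT had 7 and 4. HELLPAR, a very long lncRNA of 205012 exon bases, had 1 and 10 sites, all with 2 tags. Over all members, 56.3% of the 213 deletion sites of IP 1 and 64.9% of the 296 of IP 2 were next to another, which leaves 140 and 172 separate deletions.

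The pseudogenes with the most sites were, after GUSBP1, SUPT16HP1 (9 sites in IP 1 and 3 in IP 2), TTC3P1 (5 and 7), AC006001.3 (5 and 6), AL080243.2, MTHFD2P7 and RYKP1 (6 and 5 each). SUPT16H encodes a subunit of the histone chaperone FACT, and AL080243.2 is most similar to RPS9, a protein of the small ribosomal subunit. AL080243.2 is only 582 exon bases long (chr22:41064052-41064633, plus strand), and 3 of its bases were listed in both IPs. AKR1B1P3 and MTHFD2P7 also had 3 shared bases each. AC138356.2, most similar to CXorf56, led the shared sites by the lower count of mutated tags of the 2 IPs, with 6 of 6 in IP 1 and 8 of 8 in IP 2 at one base and 6 of 6 and 7 of 7 at another. AL133268.1 had 3 of 3 and 11 of 11 at its shared base. Among genes with sites in a single IP, AC011497.2, SDCCAG3P2 and NME2P1 had a site with 8 of 8 tags mutated in IP 1, and AKR1B1P2 (17 of 17) and PABPC1P4 (16 of 16) had the most in IP 2.

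Nearly all pseudogene substitution sites lay at a base where the pseudogene differs from its closest protein-coding transcript. Of 935 pseudogene transcripts with a member site, 899 (96.1%) aligned to a protein-coding transcript, with a median identity of 94.8%. In IP 1, 836 of 913 aligned substitution sites (91.6%, 95% interval 89.6 to 93.3) were at a differing base, and in IP 2, 874 of 976 (89.5%, 87.5 to 91.4). The background is 6.5% of the 1001353 aligned bases of these pseudogenes. The bases just before and just after a listed base differed in 3.28% and 2.73% of cases in IP 1 and in 3.07% and 3.88% in IP 2. For sites listed in both IPs the share was 97.3% (108 of 111). Examples from the genes above are SUPT16HP1, where all 12 substitution sites differ from SUPT16H, AL080243.2 (11 of 11 from RPS9), MTHFD2P7 (11 of 11) and TTC3P1 (11 of 12). The unprocessed AC006001.3 had 0 of 4 substitution sites at a differing base and GUSBP1 had 1 of 3, and most of their sites lay outside the aligned stretch.

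**Figure D3:**
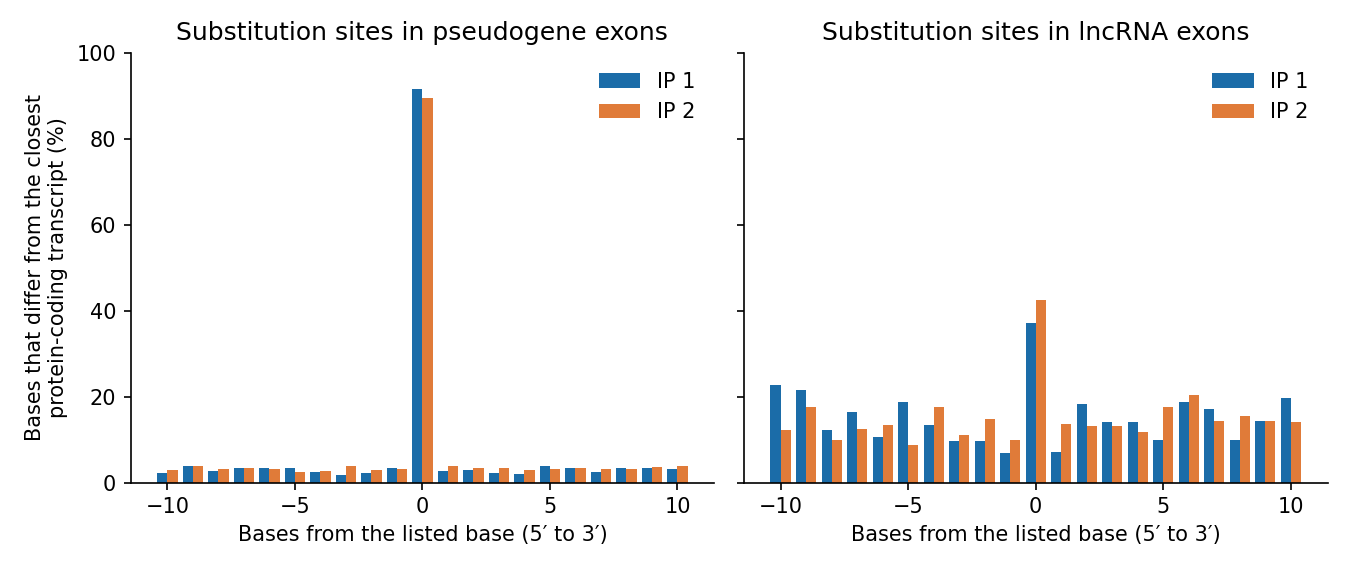
Share of bases that differ from the closest protein-coding transcript (vertical axis, percent) at the listed base and at each of the 10 bases on either side (horizontal axis, in bases), for substitution sites in pseudogene exons (left) and lncRNA exons (right), with 1 bar for each IP. In pseudogenes the listed base stands at 91.6% in IP 1 and 89.5% in IP 2 and its neighbours stand at a few percent.

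The share was higher in processed than in unprocessed pseudogenes, with intervals that did not overlap. Of the substitution sites in processed pseudogenes 93.3% in IP 1 (91.4 to 94.8) and 93.6% in IP 2 (91.8 to 95.1) were at a differing base, with a background of 5.91%. In unprocessed pseudogenes it was 63.8% (30 of 47, 48.5 to 77.3) and 48.8% (42 of 86, 37.9 to 59.9), with a background of 7.99%. Where a stretch of an lncRNA aligned to a protein-coding transcript, 37.1% of its sites in IP 1 (26 of 70) and 42.5% in IP 2 (34 of 80) were at a differing base, with a background of 14.2%. That covers few sites, since the median aligned stretch was 14.0% of the lncRNA. Insertions and deletions in pseudogenes were set against gaps of the alignment. In IP 1, 11 of 21 aligned insertion sites (52.4%) and in IP 2 18 of 37 (48.6%) were at an alignment gap, against 1.15% of all aligned positions. Of the aligned deletion sites 3 of 47 (6.38%) and 7 of 66 (10.6%) were.

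The pseudogene sites lay close to exon junctions of the protein-coding transcript. Of the differing bases listed as substitutions, 50.1% in IP 1 (46.7 to 53.6) and 53.0% in IP 2 (49.7 to 56.4) were within 25 bases of a place where 2 exons join in the protein-coding transcript, against 26.3% of all 57719 differing bases of the same pseudogenes. Within 50 bases the shares were 82.1% and 83.9%, against 49.9%. The median distance was 25 bases in IP 1 and 24 in IP 2, against 51. The lists give the mutation type but not the mutated base, and they do not say how reads that match several places were assigned. Whether the tags at these sites came from the pseudogene or from the protein-coding transcript was therefore not tested.

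**Figure D4:**
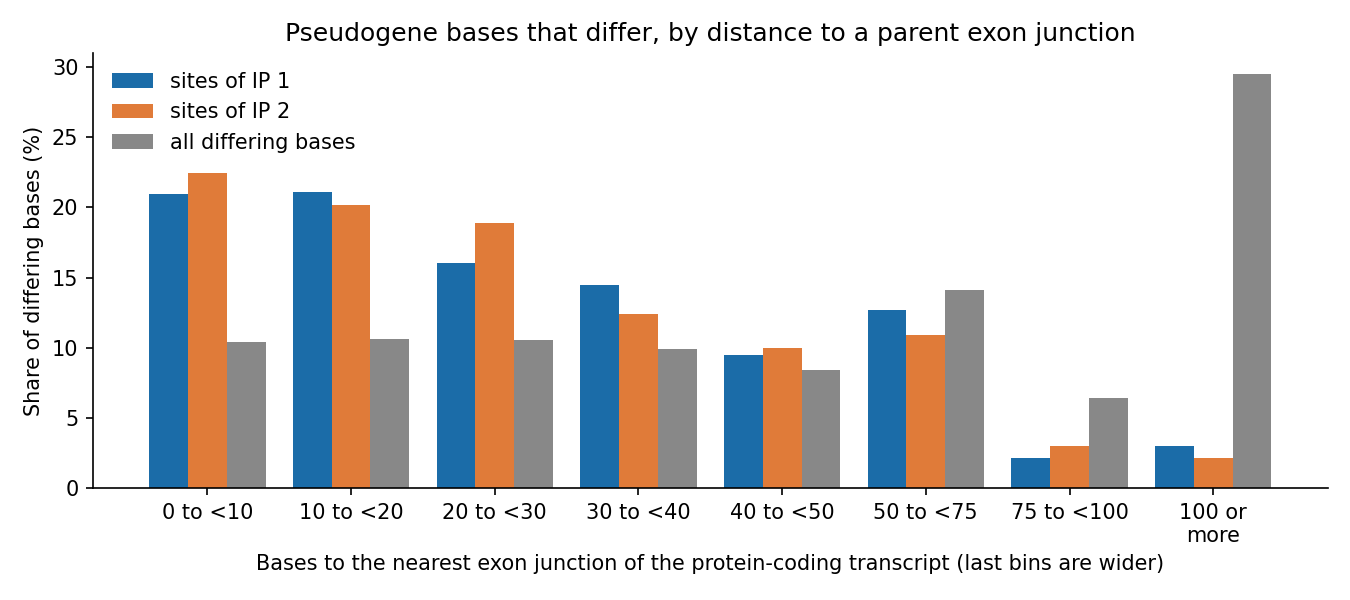
Share (vertical axis, percent) of pseudogene bases that differ from the closest protein-coding transcript, by distance in bases to the nearest exon junction of that transcript, for listed substitution sites of IP 1 and IP 2 and for all differing bases of the same pseudogenes. Listed bases gather near junctions, with a median of 25 and 24 bases against 51, and few lie 100 or more bases away.

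The protein-coding genes most similar to the pseudogenes numbered 757, and 421 (55.6%) had an exon site of their own in either IP, against 38.0% of all 19951 protein-coding genes. HADHA, the alpha subunit of the mitochondrial enzyme complex of fatty acid oxidation, led with 14 sites in IP 1 and 4 in IP 2 at HADHAP1 and HADHAP2. Next were EIF4A2, a translation initiation helicase, with 11 and 4 at 3 pseudogenes, MTHFD2 with 9 and 6 at 3, and WDR70 with 1 and 14 at 2, one of them GUSBP1 with its run of deleted bases in IP 2. The epithelial keratins KRT8 (7 and 6 at 2 pseudogenes) and KRT18 (6 and 3 at 4), the chaperones HSPA5 and HSPA8 (6 and 3 each), PABPC1, the poly(A)-binding protein (1 and 9), and GAPDH (2 and 7 at 5) were also present. Ribosomal protein genes accounted for 42 of the genes, with 74 sites in IP 1 and 60 in IP 2. By name, 35 of 1142 ribosomal protein pseudogenes (3.06%) had a site in either IP, beside 6.02% of all pseudogenes and 6.78% of processed ones. Among them were RPS11P5 (5 and 3 sites), RPL30P4 (2 and 3) and RPS21P4 (none in IP 1 and 5 in IP 2). Of 388 pseudogenes of mitochondrial sequence, 2 had a site in IP 1 and 10 in IP 2, with no gene in both (12, or 3.09%, in either, beside the 6.02% of all pseudogenes).

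Noncoding exon sites recurred between the IPs more often than intron sites. In IP 1, 160 of 1783 member sites (8.97%, 7.69 to 10.4) were listed at the same base and strand in IP 2, where the background over all sites of IP 1 is 4.17%. In IP 2, 161 of 2155 (7.47%, 6.40 to 8.66) were listed in IP 1, with a background of 3.02%. Intron sites recurred in 4.71% (IP 1) and 3.82% (IP 2) of cases, and the difference passed Fisher's exact test (two-sided, adjusted over 10 tests, p = 8.38e-14 and 1.32e-14). A base in both lists counts as recurring in each IP. The recurrence tests of the 2 IPs therefore rest on the same shared bases and are not independent. Sites in the UTRs and coding sequence (CDS) of protein-coding genes recurred in 6.32% and 5.59% of cases (adjusted p = 8.98e-05 and 0.000954 by the same exact test). That second difference did not hold in substitutions alone, where it was 1.03 points in IP 1 and 0.224 in IP 2 (exact test, adjusted p = 0.438 and 1), and among sites with 3 or more mutated tags its direction turned, to -1.67 and -1.62 points (adjusted p = 0.476 and 0.419).

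Within the noncoding exons, lncRNA sites recurred less often than pseudogene sites. In IP 1 it was 39 of 661 lncRNA sites (5.90%, 4.23 to 7.98) and 118 of 1067 pseudogene sites (11.1%, 9.24 to 13.1), with an adjusted p of 0.000306 by Fisher's exact test. In IP 2 it was 39 of 858 (4.55%, 3.25 to 6.16) and 119 of 1216 (9.79%, 8.17 to 11.6), with an adjusted p of 1.01e-05. The lncRNA interval holds the value for UTR and CDS sites and that for intron sites in each IP, and 5′ UTR sites recurred in 9.51% and 8.94% of cases. The difference between lncRNAs and pseudogenes no longer passed among sites with 3 or more mutated tags (-0.588 and -0.751 points, exact test, adjusted p = 1 in each IP) or at an FDR below the value most sites of a list share (-3.40 and -2.92 points, adjusted p = 0.144 and 0.136). With 1 site per gene it was -3.04 points in IP 1 (exact test, adjusted p = 0.0847) and still passed in IP 2. Sites of 1 transcript share their reads, so these p-values cover counting error over sites only. The recurring bases are again the same in each IP, so the tests of the 2 IPs are not independent.

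**Figure D5:**
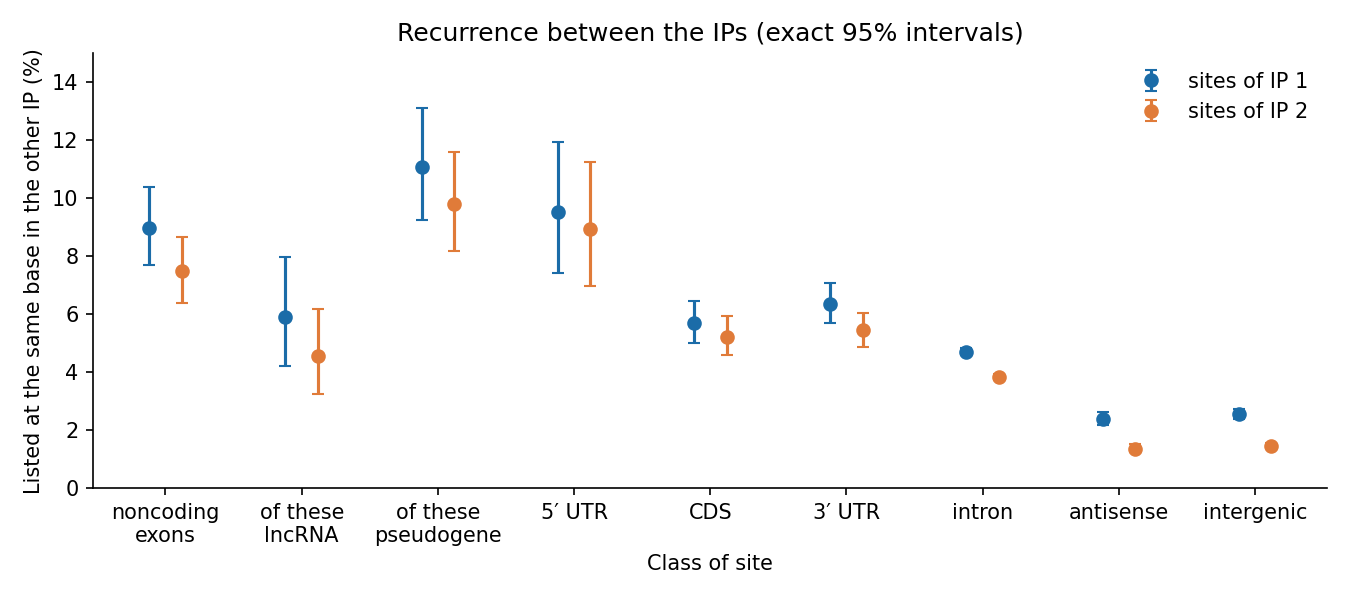
Percent of sites of each IP that are listed at the same base and strand in the other IP (vertical axis), by class of site (horizontal axis), with exact 95% intervals. Noncoding exons stand at 8.97% and 7.47%, between their lncRNA part (5.90% and 4.55%) and their pseudogene part (11.1% and 9.79%), and intron sites at 4.71% and 3.82%.

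Deletions were rarer in noncoding exons than in UTRs, CDS and introns. They made up 11.9% of member sites in IP 1 (10.5 to 13.5) and 13.7% in IP 2 (12.3 to 15.3), against 38.9% and 41.2% of UTR and CDS sites and 23.9% and 24.4% of intron sites. The share was 14.4% and 13.8% of intergenic sites and 14.8% and 14.0% of antisense sites, which were not tested. Each of the other differences passed Fisher's exact test, with adjusted p of 2.65e-122 and 2.77e-145 against UTR and CDS sites and 3.06e-36 and 8.19e-34 against intron sites. Each deleted base of a run counts as a site here, so these p-values cover counting error over sites only. With adjacent deleted bases counted once, the share was 8.19% and 8.47% of members. It was 29.5% and 31.5% of UTR and CDS sites and 16.7% and 16.9% of intron sites, and each difference still passed. By class, deletions made up 3.96% and 5.62% of the sites of processed pseudogenes and 19.5% and 21.1% of those of lncRNAs. In unprocessed pseudogenes the share was 27.4% and 22.1%, so the low value lies mainly in processed pseudogenes. Substitutions were 84.7% and 82.5% of members and insertions 3.37% and 3.81%. By class, substitutions made up 93.8% and 91.4% of the sites of processed pseudogenes, 69.0% and 72.1% of those of unprocessed ones, and 75.6% and 74.5% of those of lncRNAs, against 51.3% and 49.1% of UTR and CDS sites, 70.1% and 69.6% of intron sites, 81.3% and 81.9% of intergenic sites and 80.4% and 81.5% of antisense sites.

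Sites of processed pseudogenes came in groups. Another site of the same gene was within 50 bases for 68.7% of them in IP 1 and 64.5% in IP 2. For all pseudogene sites it was 63.9% and 59.2%, and for those of unprocessed pseudogenes 32.7% and 32.1%. It was 20.6% and 25.9% for lncRNA sites and 30.7% and 31.6% for UTR and CDS sites. In lncRNA exons insertions often fell in runs of 4 or more equal bases, 18 of 32 in IP 1 (56.2%, 37.7 to 73.6) and 20 of 38 in IP 2 (52.6%, 35.8 to 69.0), as at the NEAT1 site shown above. Deletions did so in 19.4% and 22.1% of cases and substitutions in 7.60% and 7.52%, against 9.38% of all exon positions of these lncRNAs. The deleted base was T in 36.4% of lncRNA deletions in IP 1 and 52.5% in IP 2, against 26.7% of all positions. In pseudogenes it was T in 48.6% and 44.2%, against 24.1%. Each deleted base of a run is counted in these shares.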

How the data were processed

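RNA immunoprecipitation libraries of 2 PARP1 IPs from HK-2 cells were analysed, and the 2 inputs were not. Per the submitters' processing notes bcl2fastq, TopHat2 and GRCh38 were used; for the site caller, its settings and the handling of duplicate reads, nothing is stated. Per the file headers the lists deposited hold, as whole-number counts, the tags and the mutated tags per base, and an FDR per site, a p-value type of measure that the authors gave. The deposited score equals the count of mutated tags. The highest FDR of a member was 0.00833 in IP 1 and 0.00926 in IP 2. Tags over listed sites are not the library's depth, and the reads were amplified with no molecular identifier described, so intervals cover counting error only.

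Gene types, coordinates (counted from 1) and transcripts are from GENCODE 29. Of the member genes, 38 identifiers were not in it and are left unnamed. The lists hold single bases and not the peak intervals first assumed, so overlap meant the same base and strand. Shares have exact Clopper-Pearson 95% intervals. The 10 Fisher tests (scipy 1.17.1, 5 comparisons in each IP) share 1 Benjamini-Hochberg adjustment with a threshold of 0.05. Transcripts with a member site were aligned to all protein-coding transcripts with blastn 2.17.0 (E-value at most 1e-10, word size 15) and the best alignment was kept. A simulated set with known answers was used to check both steps. Members and gene lists were chosen with earlier results of these data known.

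Genes named by rule are the 10 with the most sites, the 10 with the shared site of most mutated tags, for each IP the 3 genes found in it alone with the most mutated tags, the 5 pseudogenes with the most sites, and up to 6 members of each list plus well-known members with none. MT-RNR1, HNRNPCP2, RPL5P34, RYKP1, AL133268.1, ADIRF-AS1, GATA2-AS1, PDXDC2P-NPIPB14P, HADHA, EIF4A2 and the other source genes of pseudogenes were named after their values were seen. Alternatives were a stricter FDR, 3 or more mutated tags, 1 site per gene, substitutions only, other definitions of a shared base, the annotation in place of the authors' class and leaving out each IP. For 1 gene named by this rule, results are not reported here.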

Additional observations from a re-analysis of the deposited data

How the results depend on the processing

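Differences are in percentage points, the first group minus the second, IP 1 before IP 2. Noncoding exon against UTR and CDS recurrence fell short of the threshold under the stricter FDR, below each list's most common value (2.01 and 1.15, adjusted p = 0.0599 and 0.144), with 1 site per gene (1.56 and 0.990, adjusted p = 0.0771 and 0.163 by the same exact test) and in substitutions only (1.03 and 0.224). It turned to -1.67 and -1.62 with 3 or more mutated tags. The lncRNA against pseudogene difference fell short with the stricter FDR (-3.40 and -2.92), with 3 or more mutated tags (-0.588 and -0.751) and, in IP 1, with 1 site per gene (-3.04). The cause was not tested. Recurrence against introns and both deletion comparisons kept their direction and call under every alternative run for them, also with adjacent deleted bases counted once and without NEAT1 and MALAT1, which were both chosen after seeing the data. Member sites numbered 598 and 773 with the stricter FDR and 362 and 434 with 3 or more mutated tags, in 358 and 461 and in 217 and 271 genes, since fewer sites enter. Counted by annotated exon, IP 1 had 2676, of which the authors' class puts 782 in introns. Leaving out either IP left 1783 to 2155 sites and 1026 to 1254 genes. The pseudogene share was 75.1% and 73.3% with 3 or more mutated tags, and 49.5% and 48.6% with 1 site per gene. The share of pseudogene substitutions at a differing base was 95.5% and 94.6% with 3 or more mutated tags and 85.2% and 82.6% with 1 site per gene. It was 94.8% and 93.8% at an identity of 95% or more, and 93.6% in IP 2 for processed pseudogenes. For shared sites, which are the same bases in each list, it was 97.3%. All these alternatives were chosen after seeing the data. Ranked by sites per kb of exon, 1 of the 10 genes with most sites stayed among the first 10. In all 73 alternative values kept their direction and call or, for counts and shares, stayed near the main value, 11 fell short of the threshold, 2 turned and 27 moved. No paired analysis was possible because lists of the IPs alone were used. Recurrence has no value when an IP is left out. At 2 tags per median site, a base missing from the other IP may lie below its depth.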

Other observations

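Of the differing bases listed as substitutions in pseudogenes, 22.5% in IP 1 (19.7 to 25.5) and 24.3% in IP 2 (21.4 to 27.2) were in a CG dinucleotide of the protein-coding transcript, against 18.8% of all differing bases of the same pseudogenes. The difference between the copies was a transition at 70.5% and 71.1% of them, against 67.4% of all differing bases.

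GENCODE 29 exons of noncoding genes held 2676 listed sites of IP 1 and 3223 of IP 2, more than the authors' class. Of these, 782 and 915 were called intronic by the authors.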
